A study of Mus musculus with 4 samples.

Results

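A set of 10 genes known only by catalogue symbols, 9 with the prefix Gm and 1 ending in Rik, was followed in double-positive (DP) thymocytes of control and Cxxc1 knockout (KO) mice. They were chosen from a table of 35976 gene symbols because their counts were near an on/off change between the genotypes, so their control and KO levels are descriptions and carry no test. Of the 10, 7 were higher in the KO (Gm32742, Gm31348, Gm35107, B230118I11Rik, Gm5122, Gm34004 and Gm32643) and 3 were lower (Gm32004, Gm31803 and Gm30489). RefSeq annotates 9 as long noncoding RNA (lncRNA) genes and 1, Gm32742, as protein-coding. Long noncoding RNAs are transcripts, spliced or not, with no recognised protein product. Many are transcribed at low levels from enhancers or from the opposite strand of coding genes, and their presence often marks active chromatin in a given cell type or stage. The functions of these 10 genes are not described in the sources used here.

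DP thymocytes are the developmental stage at which T cell precursors carry both CD4 and CD8a. The cells were sorted by flow cytometry from mouse thymus as CD24+ and TCRb-. Control animals were Cxxc1 +/+ and KO animals Cxxc1 F/F, both with the Lck-cre transgene, whose Lck promoter is active in the T lineage; ages are not given in the labels. Cxxc1 encodes a zinc finger protein that binds unmethylated CG dinucleotides and works with the SETD1 enzymes that place H3 lysine 4 methylation at active promoters. There were 2 libraries per genotype, made by a SMART-seq kit from total RNA and holding 12150508 to 36243182 counts, with control 1 the shallowest. The labels do not tie each library to its own animal, so p-values here reflect how far these samples lay apart, which may be technical. Levels are in CPM, counts per 1000000 counts of the TMM-scaled library size, and 3 counts, used as a detection floor, correspond to 0.0843 to 0.252 CPM. Floors and count intervals cover counting error only.

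All 4 libraries carried the defining DP genes, at lower levels in the KO for part of the list. Cxxc1 itself stood at 111, 53.5, 35.7 and 39.4 CPM in control 1, control 2, KO 1 and KO 2; the deleted exons are not named in the labels, and counts over the whole gene do not separate them from the rest. The summed level of 10 DP markers was 12501, 16218, 6292 and 8992 CPM in that order, with 3 called lower (Cd4, Cd8a and Dntt). Rag1 was the largest part of that sum, at 4967, 7055, 2997 and 4488 CPM. Ptcra of the same list went the other way, at 13.5, 4.27, 49.9 and 26.5 CPM. Its log2 fold change of 2.13 did not pass edgeR's quasi-likelihood test (adjusted p = 0.138). The sum of 8 early double-negative markers was 139, 122, 677 and 403 CPM, with 3 called higher (Il2ra, Il7r and Notch3) and none at 0 in both libraries of a genotype. Most of that sum came from Notch3 and Il2ra, and 3 other genes of the list had negative log2 fold changes that did not pass the test (Cd44 -1.30, Flt3 -0.91 and Lyl1 -0.45; adjusted p = 0.124, 0.842 and 0.949). Of 6 erythroid markers, the globin genes Hba-a1, Hba-a2, Hbb-bs and Hbb-bt had 0 counts in both controls, and the list summed to 8.66, 14.02, 38.0 and 26.2 CPM, with Hba-a1 called higher. Single genes of other lists were also at 0 in both controls, with few counts in the KO. Nkg7 had 8 and 0 counts in KO 1 and KO 2, Ms4a1 had 0 and 2, and C1qa had 20 and 14. The neutrophil gene S100a8 was at 0 in both KO libraries, and had 2 and 0 counts in control 1 and control 2. Nkg7, Ms4a1 and S100a8 were too low to test, and C1qa did not pass edgeR's quasi-likelihood test (adjusted p = 0.357). B cell, myeloid, NK and innate-like, mature single-positive, and thymic epithelial and stromal lists summed to at most 164 CPM in any library. Gzma, a granzyme gene of the NK list, was the 1 called gene and was higher in the KO (log2 fold change 2.03). The other tested genes of the NK list all had negative log2 fold changes, none of them called. Furthest from 0 among them were Klrb1c (-2.61) and Zbtb16 (-1.97). The part of these genes in the results below was not tested. In bulk RNA, fewer cells of a type and less RNA per cell cannot be told apart.

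Promoter windows are shown for the 3 genes with the largest differences among those with a window (Gm32004, Gm31348 and Gm5122) and for the neighbour of 2 of them within the set (Gm31803 and Gm34004), since the CG dinucleotide is what Cxxc1 recognises. Each is the RefSeq window of GRCm38.p6 from 250 bases before to 50 bases after the outermost annotated start, read 5′ to 3′ on the strand of the gene, with every CG in capitals. Gm31348 (chr1:159784034-159784333, minus strand), Gm5122 (chr9:61016819-61017118, plus strand) and Gm34004 (chr9:61081643-61081942, plus strand) were higher in the KO, and Gm32004 (chr13:107565351-107565650, minus strand) and Gm31803 (chr13:107504477-107504776, minus strand) were lower.
Gm31348: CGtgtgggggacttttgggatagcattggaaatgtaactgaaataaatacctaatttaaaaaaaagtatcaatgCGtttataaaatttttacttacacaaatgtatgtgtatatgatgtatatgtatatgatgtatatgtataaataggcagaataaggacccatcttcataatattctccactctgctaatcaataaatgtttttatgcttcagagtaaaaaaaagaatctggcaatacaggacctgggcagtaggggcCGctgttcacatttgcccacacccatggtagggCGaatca
Gm5122: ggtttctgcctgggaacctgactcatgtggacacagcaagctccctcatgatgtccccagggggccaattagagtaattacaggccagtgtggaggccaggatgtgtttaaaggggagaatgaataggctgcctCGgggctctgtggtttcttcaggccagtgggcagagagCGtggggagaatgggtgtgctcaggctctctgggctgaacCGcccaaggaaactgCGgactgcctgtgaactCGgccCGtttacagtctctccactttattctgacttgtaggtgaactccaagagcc
Gm34004: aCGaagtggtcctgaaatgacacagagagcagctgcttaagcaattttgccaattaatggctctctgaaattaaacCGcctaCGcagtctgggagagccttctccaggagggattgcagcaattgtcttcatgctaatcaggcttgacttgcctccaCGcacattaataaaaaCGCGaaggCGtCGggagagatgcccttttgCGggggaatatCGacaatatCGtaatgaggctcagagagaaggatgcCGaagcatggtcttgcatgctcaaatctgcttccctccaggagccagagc
Gm32004: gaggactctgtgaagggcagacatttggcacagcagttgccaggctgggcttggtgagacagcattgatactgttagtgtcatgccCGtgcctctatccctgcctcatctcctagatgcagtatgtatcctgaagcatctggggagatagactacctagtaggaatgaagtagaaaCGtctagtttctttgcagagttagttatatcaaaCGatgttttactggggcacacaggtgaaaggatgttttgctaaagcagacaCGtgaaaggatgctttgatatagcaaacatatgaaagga
Gm31803: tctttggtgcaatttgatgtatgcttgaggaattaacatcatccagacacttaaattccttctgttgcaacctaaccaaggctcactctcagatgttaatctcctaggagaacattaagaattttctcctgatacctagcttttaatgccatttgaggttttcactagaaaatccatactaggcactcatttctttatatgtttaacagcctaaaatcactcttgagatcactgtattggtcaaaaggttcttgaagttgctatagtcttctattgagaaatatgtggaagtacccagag
The windows of Gm31348, Gm5122 and Gm32004 hold 4, 6 and 4 CGs, that of Gm34004 holds 12, and that of Gm31803 holds 0. GENCODE M21 starts Gm5122 further upstream, at 61013481, so its window holds the RefSeq start only.

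Among the 10, Gm35107 was off in the controls in the strict sense of 0 counts. Gm35107 (chromosome X, 48884927 to 48906068), an lncRNA gene with 1 RefSeq transcript, had 0 counts in both controls and 654 and 868 counts in KO 1 and KO 2, or 18.8 and 24.4 CPM. Against a floor of 3 counts per library, its mean KO level of 21.6 ± 3.97 CPM (SD, n = 2) was at least 127-fold higher. The nearest tested coding genes lay 174 kb to one side (Rbmx2, an RNA-binding protein gene of the spliceosome) and 104 kb to the other (Enox2). Enox2 had a log2 fold change, KO over control, of 0.84 ± 0.30 (SE) and Rbmx2 one of 0.45 ± 0.42, and neither passed edgeR's quasi-likelihood test (adjusted p = 0.262 and 0.710).

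Gm31348 and Gm5122 were close to the floor in the controls. Gm31348 (chromosome 1, 159773389 to 159784083) had 1 and 5 counts in the controls and 829 and 1009 in the KO, or 0.0841, 0.144, 23.8 and 28.3 CPM. Pooled over libraries the difference was 202-fold, with an exact 95% interval of 92.8 to 552. Gm5122 (chromosome 9, 61017069 to 61019797) had 4 counts in each control and 611 and 513 in the KO, or 0.336, 0.115, 17.5 and 14.4 CPM, a pooled difference of 92.9-fold (47.0 to 216). Its fitted log2 fold change of 6.36 was 7.07 without control 1 and 5.55 without control 2. For both genes the 2 KO libraries lay close together and far above both controls.

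Gm32742 and B230118I11Rik had counts in every library and much higher ones in both KO libraries. Gm32742 (chromosome 9, 51132219 to 51168824) stood at 1.18 and 1.64 CPM in control libraries, against 77.5 and 56.0 CPM in KO libraries, a 47.3-fold difference of the means. It is the 1 member annotated as protein-coding, with 31 merged exons and 8516 exonic bases in GENCODE M21; its protein sequence was not used here. B230118I11Rik (chromosome X, 42378049 to 42406629) stood at 2.27 and 5.05 CPM in control libraries, against 63.5 and 72.3 CPM in KO libraries, an 18.5-fold difference. Its control libraries differed 2.22-fold from each other and its KO libraries 1.14-fold, and no KO value of either gene overlapped a control value. Its fitted log2 fold change of 4.16 was 4.90 without control 2.

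Gm34004 and Gm32643 had clear counts in the controls, so on/off does not describe them. Gm34004 (chromosome 9, 61081893 to 61116705) had 2.44, 1.82, 24.4 and 21.0 CPM in control 1, control 2, KO 1 and KO 2, a 10.7-fold difference. Gm32643 (chromosome 8, 128453055 to 128492985), with 12 RefSeq transcripts, had 7.99, 9.46, 56.1 and 56.4 CPM in the same order, a 6.45-fold difference. Its lowest KO library was 5.93-fold above its highest control library.

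The 3 genes that were lower differed in how much of the control level remained. Gm32004 (chromosome 13, 107523632 to 107565400) had 346 and 1598 counts in the controls and 0 and 11 in the KO, or 29.1, 46.1, 0 and 0.309 CPM. Pooled over libraries it was 267-fold lower in the KO (exact 95% interval 149 to 536, for counting error). Its fitted log2 fold change of -7.88 was -6.87 without KO 1, and without KO 2 it would be set against 0 counts. Gm31803 (chromosome 13, 107493275 to 107504526) had 15.97 and 21.5 CPM in the controls against 0.689 and 0.927 CPM, a 23.2-fold difference. Gm30489 (chromosome 13, 36823990 to 36970968) was still present in the KO, with 20.7, 37.7, 3.50 and 4.94 CPM in the 4 libraries, 6.91-fold lower. No KO value of the 3 genes overlapped a control value.

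**Figure D1:**
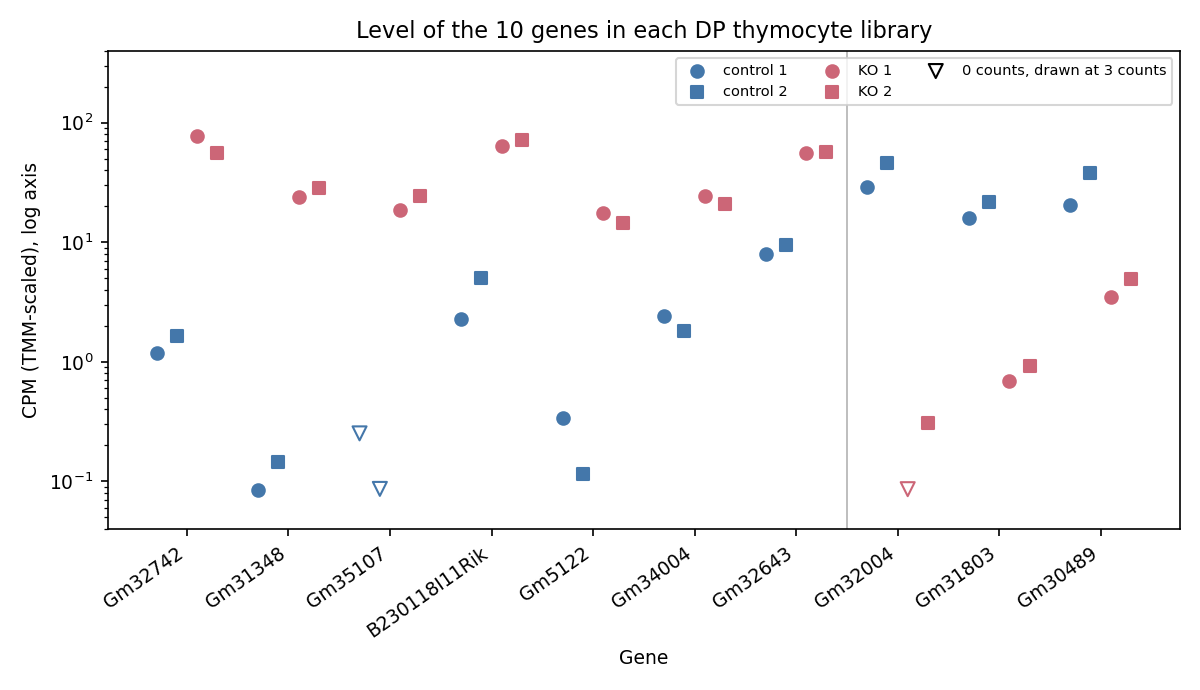
Level of each gene in each of the 4 libraries, in CPM on a log axis; circles are replicate 1 and squares replicate 2, blue for control and red for KO, and open triangles are libraries with 0 counts drawn at the level of 3 counts. The 7 genes left of the grey line are higher in both KO libraries and the 3 to its right are lower, and Gm35107 is at 0 in both controls.

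All 10 passed the filter on low counts and all 10 were called between the genotypes by edgeR's quasi-likelihood test at an adjusted p below 0.05, a threshold passed by 0.451% of the 20389 genes tested. Since that comparison chose them, nothing is read from their count. Both KO libraries lay above both controls for the 7 higher genes, as for 22.8% of tested genes, and below both controls for the 3 lower genes, as for 24.0%. The same libraries chose the members, so their spread is described only. The 7 higher genes differed between KO 1 and KO 2 by a median of 1.19-fold, close to the 1.23-fold of the 9401 tested genes at 10 CPM or more in the KO. The 3 lower genes differed between control 1 and control 2 by a median of 1.58-fold, against 1.23-fold for 8998 genes at that level in the controls. Control 2 was the higher library for all 3.

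Position played no part in the choice of the 10, and 4 of them form 2 close pairs. Gm5122 and Gm34004, both on the plus strand, lie 62.1 kb apart on chromosome 9, and Gm31803 and Gm32004, both on the minus strand, lie 19.1 kb apart on chromosome 13. For all 10 genes, 40 other symbols either lay within 100 kb or were the nearest tested coding gene on a side, and 31 of them were tested. Of these, 2 passed the threshold, beside 0.451% of all tested genes: Nrp1 and F13a1, each of which overlaps a member. DESeq2, which called 5.09% of the genes with an adjusted p, called 6 of the neighbours. Of the 18 tested neighbours within 100 kb, 16 had the sign of their member and 14 had groups that did not overlap in that direction. Neighbours of 1 locus share their place and, where they overlap, may share reads, so they are not independent. Over all tested genes, 47.6% had a positive log2 fold change. Both KO libraries lay above both controls for 22.8% of them and below both for 24.0%.

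Around Gm5122 and Gm34004, 5 other lncRNA genes were tested within 100 kb and all 5 had higher levels in both KO libraries than in both controls, as 22.8% of all tested genes did. None passed the adjusted threshold in edgeR's quasi-likelihood test, and each had an unadjusted p below 0.05, as 13.9% of all tested genes did. The likelihood ratio test and DESeq2 each called Gm33699 and Gm34105. With the 2 members they span 196 kb between the coding genes Uaca and Tle3. Gm34105, 90.0 kb beyond Gm34004, had 0.168, 0.115, 3.19 and 2.25 CPM in control 1, control 2, KO 1 and KO 2, a log2 fold change of 4.27 ± 1.25 (adjusted p = 0.188). I730028E13Rik, 21.8 kb beyond it, had 0.841, 0.173, 4.19 and 4.41 CPM, or 3.18 ± 1.04 (adjusted p = 0.228). Gm33699, between the 2 members, had 5.97, 5.19, 13.03 and 19.5 CPM, or 1.55 ± 0.43 (adjusted p = 0.169). Of the 5, Gm33699 had the highest control level and the smallest log2 fold change. The control level is the denominator of that ratio, so no relation is read from this.

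Of those 5, 2 lncRNA genes, Gm33914 and 4933433G08Rik, lie on the minus strand and overlap the span of Gm34004. Gm33914 had 0, 2.13, 8.29 and 8.65 CPM (2.87 ± 1.12, adjusted p = 0.306) and 4933433G08Rik had 0.168, 1.33, 5.51 and 3.85 CPM (2.56 ± 1.00, adjusted p = 0.305). In GENCODE M21, 200 of the 3030 exonic bases of Gm34004 are shared with Gm33914 and 0 with 4933433G08Rik. No source used here gives the strand setting of the counting, and without strand the reads of overlapping genes cannot be told apart. Without control 2, where they are highest among controls, both passed the threshold, Gm33914 then against a control with 0 counts and 4933433G08Rik at 4.76 (adjusted p = 0.0179).

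The coding genes on either side of that lncRNA cluster gave different values; below and above stand for lower and higher coordinates. Uaca, which encodes a coiled-coil protein with ankyrin repeats, lies 137 kb below Gm5122 and had 36.6, 24.03, 207 and 64.9 CPM. Its log2 fold change of 2.17 ± 0.48 did not pass (adjusted p = 0.102). KO 1 was the high library: without it the value was 1.14 (adjusted p = 0.516), while 7 of 12 alternatives called the gene. Tle3, a Groucho-family corepressor gene 256 kb above Gm34004, had 333, 220, 331 and 224 CPM (log2 fold change 0.01 ± 0.28, adjusted p = 0.997).

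The chromosome 13 locus of Gm31803 and Gm32004 is a stretch of noncoding genes between Kif2a and Zswim6. Gm31920, an lncRNA gene on the plus strand whose span covers 58.5% of that of Gm32004, had 7.23, 16.8, 0 and 0.534 CPM. Its log2 fold change was -5.47 ± 1.18 (adjusted p = 0.0937), and 7 of 12 alternatives called it, though not the one without KO replicate 1 (-4.45, adjusted p = 0.199). AI197445, 14.1 kb below Gm31803, had 1.93, 0.433, 0.143 and 0.365 CPM (-2.18 ± 1.69, adjusted p = 0.638), and the pseudogene Apoo-ps, 78.5 kb below, had 5.80, 0.548, 1.06 and 0.787 CPM (-1.76 ± 1.18, adjusted p = 0.575). Gm32090 and Gm32186 were too low to test, with 59 and 18 counts in control 2 and at most 7 in any KO library.

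The coding genes that bound the chromosome 13 stretch did not pass the test. The kinesin gene Kif2a, 471 kb below Gm31803, had 98.4, 98.8, 94.1 and 73.3 CPM (log2 fold change -0.24 ± 0.23, adjusted p = 0.732). Zswim6, 159 kb above Gm32004, had 20.8, 25.2, 16.2 and 16.9 CPM, or -0.47 ± 0.32 (adjusted p = 0.578). Both KO libraries of each lay below both controls, as for 24.0% of all tested genes.

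**Figure D2:**
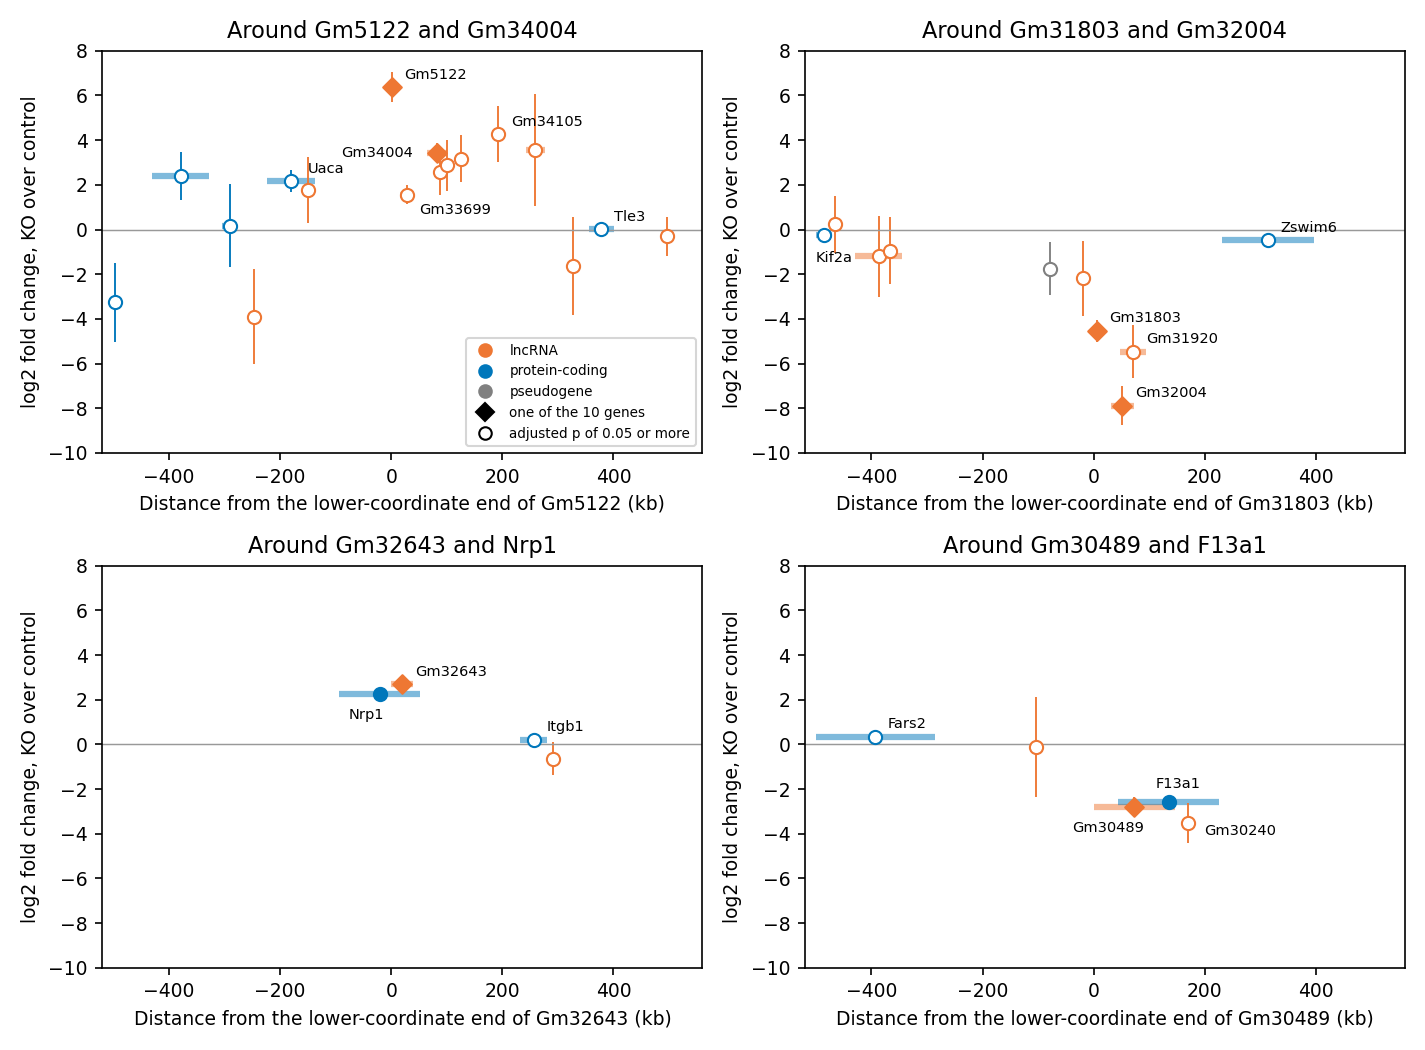
Log2 fold change, KO over control, of each tested gene within 500 kb of 4 loci, against distance in kb; horizontal bars are gene spans, vertical bars the standard error, diamonds the 10 genes and filled symbols an adjusted p below 0.05. The lncRNA genes from Gm5122 to Gm34105 lie above 0 while Tle3 is at 0.01, and Gm31803, Gm31920 and Gm32004 lie at -4.53 to -7.88 while Kif2a and Zswim6 are near 0; in the other 2 panels Nrp1 and F13a1 are the filled circles.

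Of the 10, 3 lie inside or across a coding gene on the opposite strand, and in 2 cases the coding gene passed the test in the same direction. The whole span of Gm32643 lies within Nrp1, which encodes neuropilin 1, a receptor for semaphorins and vascular endothelial growth factor. Nrp1 rose from 50.5 and 77.9 CPM in control libraries to 351 and 269 CPM in KO libraries (log2 fold change 2.27 ± 0.28, edgeR, adjusted p = 0.0177). Without KO replicate 1 it was 2.10 and no longer called (adjusted p = 0.0653); the other 11 alternatives called it. Per 100 counts of Nrp1, Gm32643 had 15.8 and 12.2 counts in the controls and 15.99 and 21.0 in the KO.

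Gm30489 overlaps F13a1, the gene of the coagulation factor XIII A chain, over 70.6% of its RefSeq span. F13a1 fell from 158 and 169 CPM to 26.4 and 27.8 CPM (log2 fold change -2.59 ± 0.23, edgeR, adjusted p = 0.00478) and was called in all 12 alternatives. Per 100 counts of F13a1, Gm30489 had 13.1 and 22.2 counts in the controls and 13.3 and 17.8 in the KO. In these 2 pairs the ratio thus stayed between 12.2 and 22.2 in all 4 libraries. GENCODE M21 lists Gm30489 as antisense with 1746 exonic bases, 74 of them shared with F13a1 exons, and starts it further up the chromosome than RefSeq, at 36963239. A further lncRNA gene inside F13a1, Gm30240, had 3.87, 10.96, 0.287 and 1.01 CPM (-3.51 ± 0.88, adjusted p = 0.129).

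Gm31348 lies wholly within Tnr, the tenascin R gene, and did not follow it. Tnr had 2.86, 3.78, 5.65 and 5.84 CPM (log2 fold change 0.79 ± 0.58, adjusted p = 0.622). Per 100 counts of Tnr, Gm31348 had 2.94 and 3.82 counts in the controls and 421 and 485 in the KO. In this pair the ratio was far higher in both KO libraries. Gm32643 and Gm31348 have no GENCODE M21 entry, and 2268 exonic bases of Nrp1 and 480 of Tnr lie inside their RefSeq spans.

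**Figure D3:**
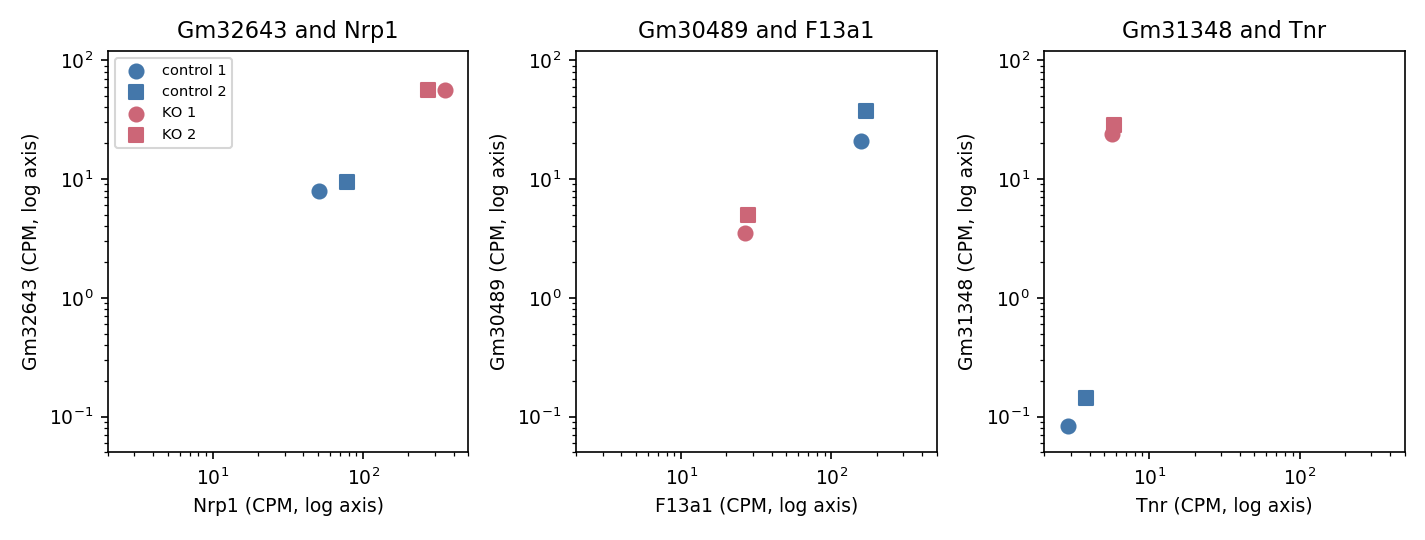
Level of 3 members against the coding gene that overlaps each on the opposite strand, in CPM on log axes, 1 point per library. Gm32643 and Nrp1 are both higher in the KO and Gm30489 and F13a1 both lower, while Gm31348 goes from at most 0.144 to at least 23.8 CPM with Tnr between 2.86 and 5.84 CPM.

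The neighbours of Gm32742 and B230118I11Rik did not pass the test. Layn, the layilin gene 55.0 kb below Gm32742, had 1.68, 1.13, 4.42 and 4.89 CPM (1.74 ± 0.74, adjusted p = 0.348). Btg4, 12.3 kb below, had -1.99 ± 1.58 (adjusted p = 0.648), and Pou2af1, a B cell coactivator gene 44.9 kb above, had 0.65 ± 0.79 (adjusted p = 0.793). Sh2d1a, which encodes the SLAM adaptor SAP and lies 95.9 kb above B230118I11Rik, had 69.5, 105, 53.4 and 85.3 CPM (-0.33 ± 0.30, adjusted p = 0.707). Stag2, a cohesin subunit gene 100.9 kb below B230118I11Rik, had 446, 499, 578 and 468 CPM (0.15 ± 0.23, adjusted p = 0.858). Beyond Tnr, which contains it, the nearest tested coding genes of Gm31348, Pappa2 and Gm31493, lay 813 and 192 kb away, with log2 fold changes of -3.86 ± 1.48 and 0.42 ± 0.51 (adjusted p = 0.298 and 0.797).

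The remaining flanking coding genes also missed the threshold. Itgb1, the beta 1 integrin gene 193 kb above Gm32643, had 95.3, 129, 129 and 131 CPM (0.21 ± 0.24, adjusted p = 0.776), and Pard3, on the other side, was at 1.15 CPM or less in each library (0.62 ± 1.65, adjusted p = 0.924). Beside Gm30489, Fars2 had 0.34 ± 0.29 and Rreb1 had -0.13 ± 0.22 (adjusted p = 0.686 and 0.876).

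The promoters of the 8 members with a window in the RefSeq table were poor in CG. They held 0 to 12 CGs in 300 bases, with a median of 4, beside a median of 5 over 2720 tested lncRNA genes and 19 over 11632 tested protein-coding genes. Their median GC content was 47.0%, beside 50% and 60%. Gm34004, with 12 CGs, was the 1 member with 10 or more, a count reached by 27.7% of the lncRNA and 74.2% of the protein-coding promoters. Gm32742, Gm32643 and Gm30489 held 3, 5 and 2, the last at a RefSeq start far from the GENCODE one. Gm32742, on the minus strand, starts at 51168824 in RefSeq and at 51165517 in GENCODE M21, so its window also holds the RefSeq start only. RefSeq gives 8 windows for Gm32643 and 2 each for Gm34004, Gm32004, Gm31803 and Gm30489. Only the outermost window of each gene, members and others alike, was counted. The members were thus near the other lncRNA genes in this measure, and the table holds no window for Gm35107 and B230118I11Rik.

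**Figure D4:**
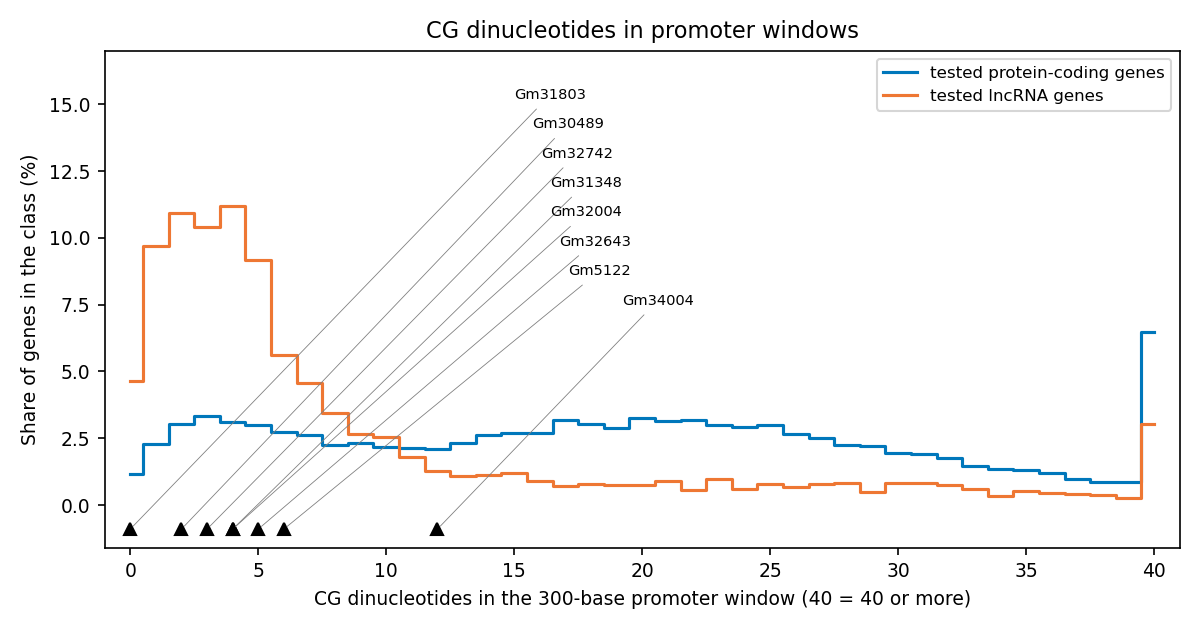
Share of tested genes, in percent, by the number of CG dinucleotides in the 300-base promoter window, for protein-coding (blue) and lncRNA genes (orange); black triangles mark the 8 members with a window. The members lie between 0 and 12, where most lncRNA windows lie.

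Short motifs were searched in the same windows, anywhere and on both strands; none of the 4 contains another. TATAAA, the core of a TATA box, was found in 4 of 8 (Gm32742, Gm31348, Gm31803 and Gm30489), beside 14.1% of tested lncRNA and 7.83% of tested protein-coding promoters. Of these 4 windows, those of Gm31348, Gm31803 and Gm30489 had 35%, 36.3% and 38.7% GC, and that of Gm32742 had 50%. The median over tested lncRNA windows was 50%, and the part of base composition in these matches was not tested. The windows of Gm32742 and Gm30489 lie at RefSeq starts that differ from the GENCODE ones. The RUNX core TGTGGT was found in 1, Gm5122, beside 20.6% of tested lncRNA genes and 14.3% of all tested genes. The TCF/LEF core CTTTGA was found in 1, Gm32004, beside 17.1% of tested lncRNA genes and 13.5% of all tested genes. The E-box CANCTG was found in 4 (Gm34004, Gm32643, Gm32004 and Gm31803), beside 57.4% of tested lncRNA genes and 47.9% of all tested genes. These matches are letters in a window, not sites.

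The on/off pattern was then counted over the whole table, as at most 3 counts in each library of 1 genotype and at least 10 in each library of the other. It held for 312 symbols on in the KO and for 304 off in the KO, of 30613 with any count. Among them were 173 and 143 Gm or Rik symbols, or 1.77% and 1.46% of the 9792 detected symbols of that kind, beside 0.627% and 0.762% of 19296 symbols that were neither these nor LOC. The pattern needs at most 3 counts in each library of 1 genotype, so genes with low counts meet it more readily. Of the 9792 Gm or Rik symbols, 4498 passed the filter on low counts, beside 20389 of all 30613 detected symbols. The shares were not matched for level, so nothing is read from their difference. Of the 10 genes, Gm35107 alone met the pattern. At an off limit of 0.25 CPM, 379 symbols were on and 571 off in the KO, and Gm31348 met the pattern as well.

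By CPM, which does not correct for gene length, Gm35107 led the 312. Next came the haemoglobin alpha gene Hba-a1, at 14.6 and 6.49 CPM in KO 1 and KO 2. Ccdc122 (6.54 and 3.17 CPM) and Capsl (3.33 and 6.21 CPM) were also among the leading 5. In the other direction the highest control levels were those of the complement gene C4b (5.97 and 2.71 CPM), the endothelial receptor gene Tie1 (6.56 and 0.462), the dipeptidyl peptidase-like gene Dpp6 (1.35 and 5.57), Efcab3 (4.88 and 1.82) and the homeobox gene Otx2 (4.79 and 1.79).

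Established lncRNA genes served as a comparison class. The list also holds Rmrp and Terc, which RefSeq types as RNase MRP RNA and telomerase RNA. Rmrp is also 1 of the 6 small noncoding RNAs left out of the totals in 1 alternative. Of 45 listed genes in the table, 36 were tested and 0 were called by edgeR's quasi-likelihood test, beside 0.451% of all tested genes. At that share, 0 calls among 36 genes do not set the class apart. In the same test 7 of the 36 had an unadjusted p below 0.05, beside 13.9% of all tested genes. DESeq2 called 2, beside 5.09% of the genes with an adjusted p. The median log2 fold change of the 36 was 0.18, beside -0.04 over all tested genes and -0.28 over 3568 tested lncRNA genes. Of these 3568, edgeR's quasi-likelihood test called 14, or 0.392%, close to the 0.451% of all tested genes, and 9 of the 14 are members. Malat1, the abundant nuclear RNA, had -0.32 ± 0.34 (adjusted p = 0.751), Rmrp, the RNA of the RNase MRP complex, had 0.14 ± 0.26 (adjusted p = 0.886), and Kcnq1ot1, the imprinted antisense RNA, had 0.49 ± 0.22 (adjusted p = 0.373). Meg3 and Firre lay further from 0 than these 3 and were named after their values were seen. The imprinted gene Meg3 was at 6.14, 1.36, 0.115 and 0.0562 CPM (-5.37 ± 1.31, adjusted p = 0.122). The X-linked gene Firre was at 42.5, 52.2, 101.5 and 116 CPM (1.20 ± 0.24, adjusted p = 0.0739). Miat (-1.54), Jpx (1.46), Epb41l4aos (1.43), Lncpint (1.42) and Hotair (-1.36) lay further from 0 than Firre and were not called.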

How the data were processed

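The authors deposited whole-number read counts per gene symbol, 1 file per library and not normalised; the file headers name a HISAT2 alignment. Tools listed in the submitters' processing notes, without role or order, are HISAT2 2.2.1, cutadapt 4.0, edgeR 3.36.0 and featureCounts 2.0.8, and the build listed there is mm10. No source used here gives the gene annotation, the strandedness or how multi-mapped reads were counted. Libraries held 12150508, 34820446, 36243182 and 33544428 counts (control 1, control 2, KO 1, KO 2).

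Counts were fitted in R 4.3.3 with edgeR 4.0.16: filterByExpr (minimum count 10, minimum total 15), TMM, and a quasi-likelihood test with genotype as the only term, Benjamini-Hochberg adjustment over 20389 genes and a threshold of 0.05. The standard error is the log2 fold change divided by the square root of F. DESeq2 1.42.0, a likelihood ratio test, other scalings and filters, a replicate block and each library left out in turn were the alternatives.

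The 10 genes and all lists were chosen with earlier results of these data known. Named beside them are called neighbours, nearest tested coding genes, the 5 highest genes per direction with the on/off pattern (1 is not reported here), and the 3 highest of the established lncRNA list; other neighbours within 100 kb, and genes under other observations, were named after their values were seen. Coordinates are RefSeq gene spans; the table's assembly, GRCm38.p6, is the same reference as mm10; 32501 of 35976 symbols matched. Exons came from GENCODE M21 on the same assembly. Promoter windows are RefSeq's, with a match for 8 of the 10 genes.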

Additional observations from a re-analysis of the deposited data

How the results depend on the processing

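The direction of all 10 genes was the same in all 12 alternative fits, and all were called in 10 of them; without KO replicate 1, 5 were called, and without KO replicate 2, 9. Of all tested genes 92 were called, and 71 to 93 with other scalings (library totals, DESeq2 size factors, totals without 6 small noncoding RNAs). The count was 997 by the likelihood ratio test, 977 by DESeq2, 920 with no filter and 228 at a minimum of 5 CPM; for neighbours (2 as reported) it was 7, 6, 7 and 3, and for established lncRNA genes (0) it was 2, 2, 2 and 1. Leaving out single libraries gave 9 (without KO replicate 1) to 619 (without control replicate 2) of all genes, 1 to 6 neighbours and 0 to 2 established lncRNA genes. Libraries with the same number did not deviate together (r = 0.07 across genes), so the numbers were not taken as pairs; a replicate block gave 1599 genes, 8 neighbours and 5 established lncRNA genes. The 616 symbols with an on/off pattern were 312 on and 304 off in the KO. With an off limit of 0.25 CPM there were 950 (379 on and 571 off), and with 0 counts 332 (174 and 158). With at least 50 counts in the on state 30 were left, of which 27 were on in the KO. Control 1 has the fewest counts, so an on limit of 10 or 50 counts asks most of it, and an off limit in counts asks least of it. Neighbour counts within 50 and 500 kb were 2 and 3. The cause of these shifts was not tested.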

Other observations

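A further 8 Gm or Rik genes passed the threshold (edgeR's quasi-likelihood test, adjusted p between 0.0233 and 0.0466), and all 8 were higher in the KO. They were named after their values were seen. With the members, 18 of 4498 tested Gm or Rik genes were called, or 0.400%, beside 0.451% of all tested genes. Of the 18, 15 were higher and 3 lower, and the 3 lower ones are all members. Several of the 8 lay in pairs, as some of the genes above did. Gm16157 and Gm16158 both overlap the span of Fam169b on chromosome 7; Gm16157 had 2.61, 3.55, 19.5 and 21.4 CPM in control 1, control 2, KO 1 and KO 2, and Gm16158 had 10.8, 16.4, 47.0 and 55.8 CPM. Fam169b itself had a log2 fold change of 1.17 ± 0.26 (adjusted p = 0.105). Gm4759, a transcribed pseudogene at 0.757, 3.46, 26.4 and 54.8 CPM, and Gm8995, at 31.7, 38.5, 105.5 and 123 CPM, also lie on chromosome 7, near Gm1966 (2.37 ± 0.78, adjusted p = 0.228), and reads of near-identical copies could be split between such genes.

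Gm35449 (5.38, 5.89, 29.4 and 22.5 CPM) overlaps Chdh, the choline dehydrogenase gene, which rose as well (1.53 ± 0.22, adjusted p = 0.0283). Gm30159 on chromosome 15 had 3.11, 4.01, 27.7 and 21.5 CPM, with its nearest tested coding gene 941 kb away. Gm31754 on chromosome 16 had 2 and 4 counts in the controls and 236 and 196 in the KO. The clone 2010107G12Rik, with no match in the RefSeq table, had 5.88, 5.60, 33.3 and 31.9 CPM.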
